A study of Mus musculus with 2 samples.

Results

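The genes described here are 10 members of the FGF and PDGF signalling system in the embryonic mouse lens, namely the receptors Fgfr1, Fgfr2, Fgfr3 and Pdgfra, the feedback inhibitors Spry2, Spred2 and Spred3, the phosphatases Dusp4 and Dusp6, and the transcription factor Etv5. They were chosen by name, as all probes whose gene symbol in the array annotation equals one of these 10, which gave 24 of the 45281 probes and 10 of the 19057 named genes. The lens fibers group is 1 array of wild type lens fibers at stage E12.5, and the lens epithelium group is 1 array of wild type lens epithelium of the same stage. Total RNA was labelled with biotin and hybridised to 1-colour Illumina arrays of the whole mouse genome. Strain, sex, dissection and the number of embryos behind each array are not stated in the labels. With 1 array a group there is no replicate error, so no test was made, and each ratio describes these arrays.

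Fibroblast growth factors (FGFs) bind receptor tyrosine kinases together with heparan sulfate, and the receptors signal through Ras, the kinases Raf, MEK and ERK, and the PI3K-Akt branch. Active ERK induces its own brakes, among them the Sprouty and Spred proteins, which act on the way to Raf, and the dual-specificity phosphatases, which remove phosphate from ERK and related kinases. In the lens, FGF signalling is known for its role in the differentiation of epithelial cells into elongated fibers, and PDGF receptor alpha for its role in the epithelium.

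A value is called measured where it was above a floor, the 95th percentile over probes of genes that lens is not known to use, called silent genes below (1580 probes, 1308 genes: odorant, pheromone and trace amine receptors and hair keratin-associated proteins). The floor was 32.1 on the fibers array and 44.6 on the epithelium array, in units of quantile-normalized intensity. A gene stands for its brightest probe, and its ratio is fibers over epithelium. Where only 1 array was above its floor, its value divided by the dim array's floor gives a bound ("at least N-fold"), and where that quotient does not exceed 1 the gene has no direction. Intensities of different probes are not comparable as levels, so only the same probe is compared between the arrays.

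The arrays matched their labels on most markers listed for them. Of 16 fiber markers on the array, 15 were measured and 14 of these reached 2-fold in favour of fibers, and of 9 epithelium markers 7 were measured and 6 reached 2-fold in favour of epithelium. Mip, a water channel of fiber cells, read 19878 in fibers and 3206 in epithelium, and Gja1, connexin 43, read 15.2 in fibers and 399 in epithelium. Of the 15 fiber markers, 12 were above the floor in epithelium too.

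Of the 10 genes, 9 were measured on at least 1 array. Spry2, Spred2 and Spred3 were at least 2-fold higher in fibers, and Pdgfra and Dusp4 were at least 2-fold higher in epithelium. Fgfr2 and Dusp6 stayed under 2-fold, Etv5 had no direction, and Fgfr3 was below the floor on both arrays. Fgfr1 had a bound of 1.61-fold higher in fibers, which does not show whether the difference reached 2-fold. By the same rule, 15.5% of all 6451 measured genes were 2-fold or more higher in fibers and 18.5% were 2-fold or more higher in epithelium, so the 2 of 9 in epithelium were near the background share, and the 3 of 9 in fibers exceeded it by only 1 or 2 genes. Of the 9, 4 were above the floor in fibers only and 1 in epithelium only, and such a gene can lie on no other side. Of all 6451 measured genes, 2308 were above the floor in fibers only and 1157 in epithelium only. Of all 1308 silent genes, measured or not, 0.459% were called higher in fibers and 2.37% higher in epithelium. The floor was set from the probes of these same genes, which limits how many can pass it. These shares are therefore not comparable with the shares of measured genes. The median log2 ratio was 0.00 over the 9 genes and 0.00 over all measured genes. Both are the value assigned to genes with no direction, which were Etv5 among the 9 and 773 of all measured genes. Of all measured genes, 44.5% had a log2 ratio or bound below 0 and 43.5% above 0. In a whole-tissue sample, fewer expressing cells and less RNA per cell cannot be told apart.

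The scaling of the arrays moved these counts. Scaling to 9 housekeeping genes measured on both arrays moved the log2 ratios of genes above both floors under both scalings by a median of -0.85. After it, none of the 10 genes reached 2-fold in favour of fibers by ratio or bound. In favour of epithelium, 4 reached 2-fold (Fgfr2, Pdgfra, Dusp4 and Dusp6). The same scaling left 4.45% of measured genes 2-fold or more higher in fibers and 42.9% in epithelium.

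**Figure D1:**
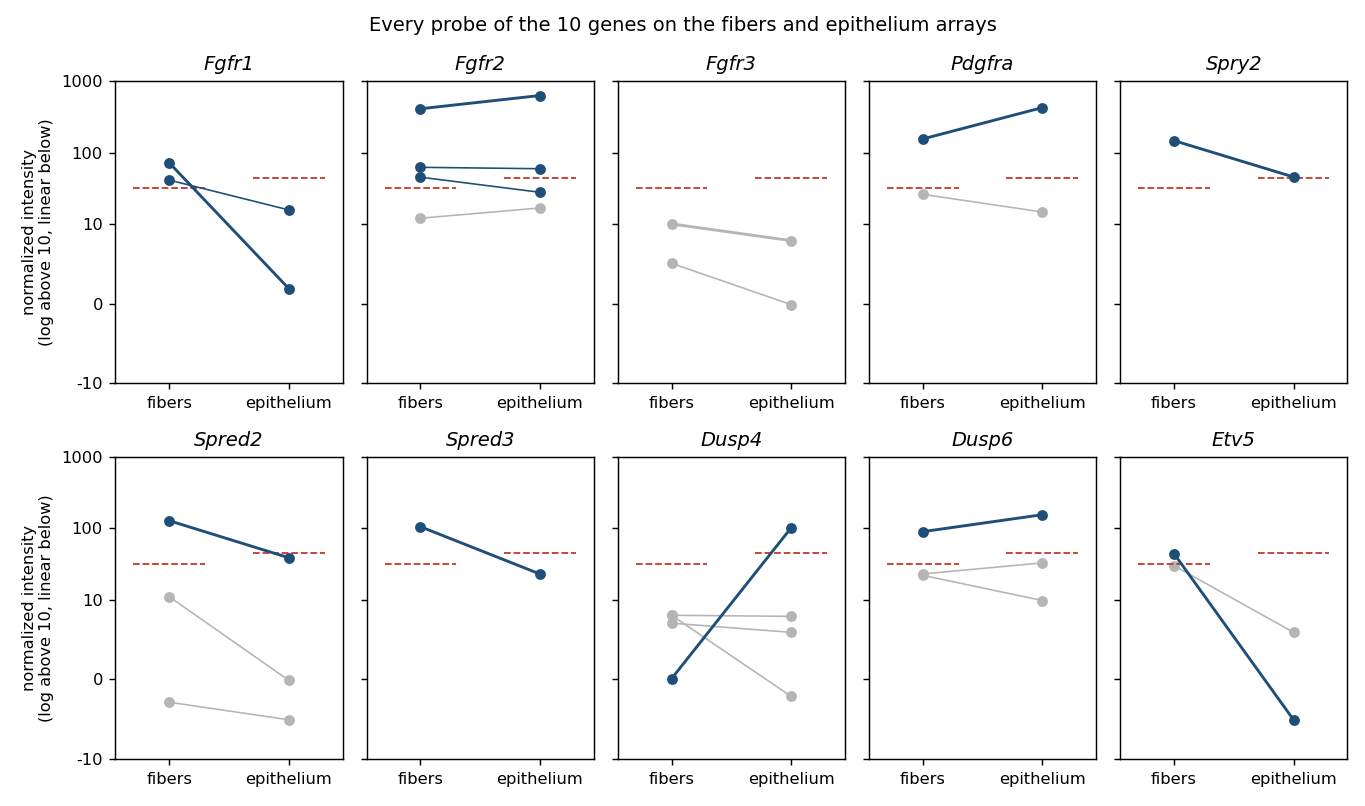
Normalized intensity (vertical axis, logarithmic above 10 and linear below) of each probe of the 10 genes on the fibers array (left) and the epithelium array (right), with 1 line a probe, blue where the probe was above the floor on at least 1 array and grey otherwise, and the thick line the brightest probe. Dashed red lines are the floors of 32.1 in fibers and 44.6 in epithelium, and 12 of the 24 probes were above a floor.

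Sequence upstream of 4 genes is printed for Spry2, Spred2 and Spred3, the inhibitors called higher in fibers, and for Pdgfra, which was called higher in epithelium. The stretches are the 250 bases before an annotated RefSeq transcription start in GRCm38.p6, on the strand of the gene, and capitals mark the letters GGAAG on either strand, the core of many sites of ETS factors, the family of Etv5. They are chr14:105896820-105897069 on the minus strand for Spry2, chr11:19924192-19924441 on the plus strand for Spred2, chr7:29168648-29168897 on the minus strand for Spred3 and chr5:75152001-75152250 on the plus strand for Pdgfra.
Spry2: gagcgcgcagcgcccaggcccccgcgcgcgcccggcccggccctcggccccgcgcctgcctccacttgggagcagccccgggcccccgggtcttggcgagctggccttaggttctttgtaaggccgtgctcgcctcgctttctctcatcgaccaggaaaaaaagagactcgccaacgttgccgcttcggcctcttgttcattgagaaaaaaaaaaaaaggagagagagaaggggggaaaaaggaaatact
Spred2: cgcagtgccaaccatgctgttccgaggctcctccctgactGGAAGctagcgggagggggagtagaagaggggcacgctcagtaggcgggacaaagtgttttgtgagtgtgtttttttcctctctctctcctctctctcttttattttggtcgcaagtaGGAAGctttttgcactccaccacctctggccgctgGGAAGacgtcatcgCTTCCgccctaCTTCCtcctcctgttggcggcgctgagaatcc
Spred3: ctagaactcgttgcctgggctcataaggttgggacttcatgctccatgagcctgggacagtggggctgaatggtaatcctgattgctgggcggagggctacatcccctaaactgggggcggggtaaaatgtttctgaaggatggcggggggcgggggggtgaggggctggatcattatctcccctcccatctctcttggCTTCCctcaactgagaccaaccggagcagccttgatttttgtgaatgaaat
Pdgfra: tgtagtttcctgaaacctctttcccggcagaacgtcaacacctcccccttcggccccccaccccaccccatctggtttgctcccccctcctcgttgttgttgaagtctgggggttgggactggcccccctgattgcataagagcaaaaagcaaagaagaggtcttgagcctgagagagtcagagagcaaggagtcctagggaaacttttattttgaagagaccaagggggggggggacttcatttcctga

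Promoter windows were found for 8 of the 10 genes, 10 windows in all. The Spred2 window held GGAAG 5 times, the Spred3 window once, and the Spry2 and Pdgfra windows had none. Across the mouse promoter table, 64.1% of 32851 windows of the same length held GGAAG at least once and 0.965% held it 5 times or more. The longer letters CCGGAA, which overlap GGAAG when a G follows, were in none of the 10 windows and in 3952 of all windows. The 3 inhibitors called higher in fibers thus did not share these letters, and a match or its absence is a description of the window only.

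Pdgfra was the receptor gene called past 2-fold. Pdgfra, the receptor for PDGF-A, read 155 in fibers and 426 in epithelium (2.74-fold higher in epithelium, log2 ratio -1.46). Its second probe, annotated to a cDNA clone and not to the RefSeq transcript, read 26.1 in fibers and 14.8 in epithelium, below both floors, so 1 probe carries the difference. Of 2986 genes measured on both arrays, 9.81% had a lower ratio than Pdgfra. Pdgfra kept its direction and stayed past 2-fold in all 9 alternative settings that gave it a value, with log2 ratios from -2.30 to -1.21.

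Pdgfra is also a gene of mesenchyme, so the mesenchyme markers are given beside it. Of 10 periocular mesenchyme markers on the array, 1 was measured, Tfap2b, at 36.2 in fibers and 209 in epithelium (5.76-fold higher in epithelium), in the same direction as Pdgfra. The summed intensity of the list was 81.2 in fibers and 297 in epithelium, of which Tfap2b alone gave 36.2 and 209. The rest of each sum came from values below the floors, and a sum adds probes that are not comparable as levels. The collagens Col1a1, Col1a2 and Col3a1, the factors Foxc1, Foxc2, Twist1 and Prrx1, and Pdgfrb were below the floor on both arrays. Pdgfrb, the other PDGF receptor and a defining marker of perivascular mesenchyme, read -8.89 in fibers and -8.09 in epithelium. Of the 4 PDGF ligand genes, Pdgfa alone was measured, at 159 in fibers and 127 in epithelium, a log2 ratio of 0.32, which was -0.54 when scaled to housekeeping genes.

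Fgfr2, a receptor whose splice forms bind different FGFs, was the FGF receptor measured on both arrays, and its probes did not give 1 answer. The brightest probe read 410 in fibers and 628 in epithelium (1.53-fold higher in epithelium, log2 ratio -0.61). A second probe, annotated to a different RefSeq transcript, read 62.3 in fibers and 59.5 in epithelium (log2 ratio 0.065). Another read 45.4 in fibers and 27.9 in epithelium, a bound of 1.02-fold higher in fibers, and the last read 12.1 in fibers and 16.9 in epithelium, below both floors. The brightest probe differed by less than 2-fold, and the direction rests on it, since the second brightest lay near 0 on the other side.

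Fgfr1, which in the lens acts together with the other FGF receptors, was above the floor in fibers only. Its brighter probe read 72.0 in fibers and 1.90 in epithelium, at least 1.61-fold higher in fibers. Its other probe read 41.3 in fibers and 15.8 in epithelium and had no direction. Both probes were above the floor in fibers and below it in epithelium. Under housekeeping scaling no direction was left, and the bound was 1.15 on the log2 scale with the lowess scaling.

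Fgfr3 gave no measured value. Its probes read 10.1 and 5.08 in fibers, against 7.93 and -0.12 in epithelium. Of the silent probes, 20.9% read higher than the brighter Fgfr3 probe on the fibers array and 28.4% on the epithelium array. Its transcript was therefore not detectable with these probes, which is not the same as absent.

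The Sprouty and Spred genes were all 3 called at least 2-fold higher in fibers. Spred2 and Spred3 were above the floor in fibers only, which fixed their side, so Spry2 alone could have lain on the other side. Spry2, a Sprouty that restrains Ras-ERK signalling downstream of FGF receptors, has 1 probe and read 147 in fibers and 45.6 in epithelium (3.23-fold, log2 ratio 1.69). Of the silent probes, 0.316% read higher than Spry2 in fibers and 4.62% in epithelium, where its value lay just above the floor of 44.6. Of the genes measured on both arrays, 5.29% had a higher ratio than Spry2.

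Spred2, a membrane-associated inhibitor of Raf activation, read 128 in fibers and 38.8 in epithelium with its brightest probe, at least 2.86-fold higher in fibers. Its other 2 probes read 11.1 and -2.87 in fibers, against -0.12 and -5.08 in epithelium, so they were below both floors. With the mean of its 3 probes the bound was 0.023 on the log2 scale. The call for Spred2 therefore rests on 1 of 3 probes.

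Spred3, a member of the same family, has 1 probe and read 105 in fibers and 23.0 in epithelium, at least 2.36-fold higher in fibers. On the fibers array 0.633% of silent probes read higher than Spred3, and on the epithelium array 12.2% did. With the floor at the 99th percentile of silent probes, Spry2 had a bound of 0.41, Spred2 a bound of 0.21 and Spred3 no direction. Scaled to housekeeping genes, Spry2 had a log2 ratio of 0.82, under 2-fold. Spred2 and Spred3 then had bounds of 0.65 and 0.37, which no longer reach 2-fold but do not show that the difference was under it.

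**Figure D2:**
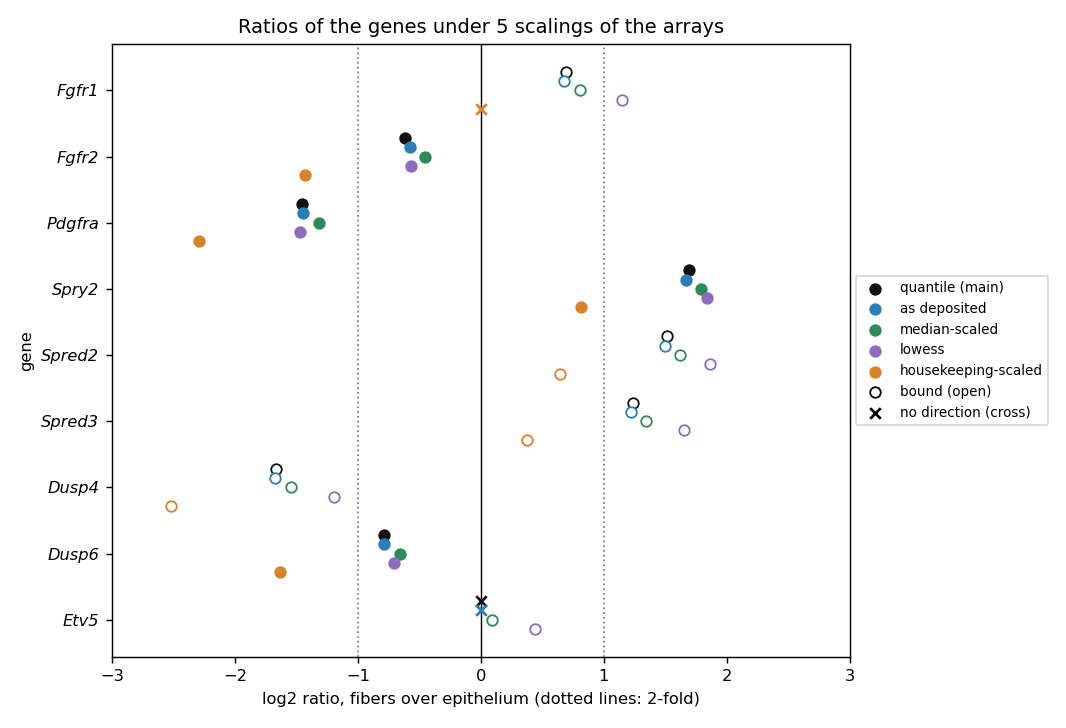
Log2 ratio of fibers over epithelium (horizontal axis) for the 9 measured genes (vertical axis) under 5 scalings of the arrays, with filled circles for ratios, open circles for bounds and crosses for no direction. Spry2, Spred2 and Spred3 lie past the 2-fold line at 1 under 4 scalings and between 0.37 and 0.82 when scaled to housekeeping genes, and Pdgfra and Dusp4 lie past -1 under all 5.

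The phosphatases lay on the opposite side from the Sprouty and Spred genes, but Dusp4 was above the floor in epithelium only, which fixed its side. Dusp4, a nuclear phosphatase of ERK and related kinases, read 0.10 in fibers and 102 in epithelium with its brightest probe, at least 3.17-fold higher in epithelium. On the epithelium array 1.14% of silent probes read higher. Its other 3 probes read 7.07 to 8.06 in fibers and -2.14 to 7.93 in epithelium, all below the floors. As for Spred2, 1 probe of several gave the call, and with the floor at the 99th percentile or the mean of its probes Dusp4 was below both floors.

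Dusp6, a cytoplasmic phosphatase selective for ERK, read 89.8 in fibers and 155 in epithelium (1.73-fold higher in epithelium, log2 ratio -0.79). Its other 2 probes read 22.0 and 23.0 in fibers, against 9.92 and 32.8 in epithelium, below both floors and in opposite directions to each other. Among genes measured on both arrays, 24.2% had a lower ratio than Dusp6. Its log2 ratio kept its sign in all 9 alternatives that gave a value, from -1.63 to -0.55, and passed 2-fold only when scaled to housekeeping genes.

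Etv5, an ETS transcription factor induced by FGF signalling, read 44.3 in fibers and -5.08 in epithelium. The fibers value was above its floor, but it did not exceed the higher floor of the epithelium array, so Etv5 had no direction. Its second probe read 30.1 in fibers and 5.91 in epithelium, just below the floor in fibers. The Etv5 bound was 0.44 on the log2 scale with the lowess scaling, and scaled to housekeeping genes Etv5 was below both floors. Both probes read higher in fibers than in epithelium at levels where 2.72% and 5.82% of silent probes read higher on the fibers array. Etv1 and Etv4, its close relatives, were below both floors, at 9.08 and 5.08 in fibers and 19.0 and 1.90 in epithelium.

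**Figure D3:**
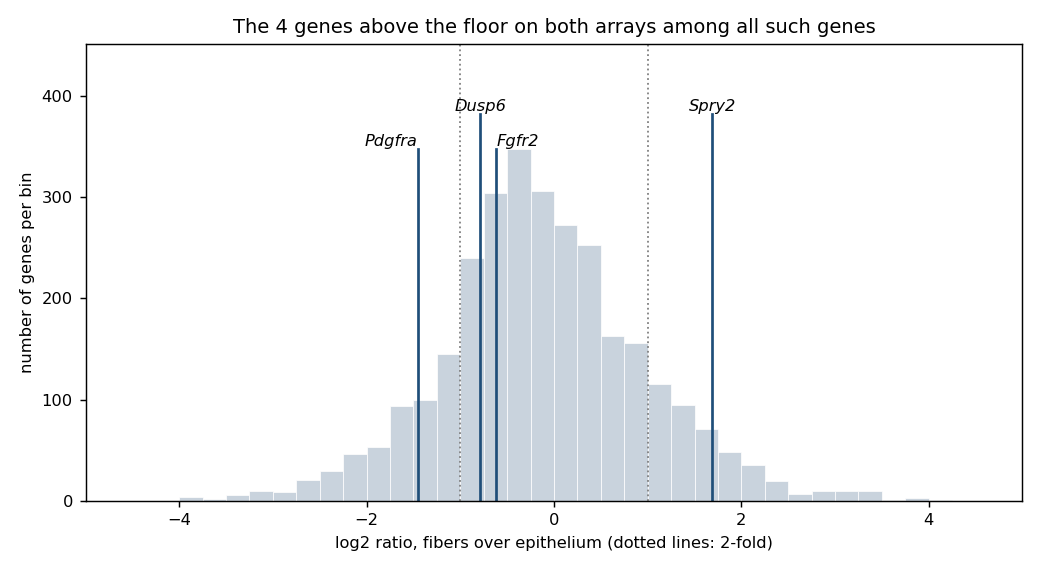
Number of genes (vertical axis) by log2 ratio of fibers over epithelium (horizontal axis, bins of 0.25) for the 2986 genes above the floor on both arrays, with lines at the 4 of the 10 genes among them. Pdgfra (-1.46) and Spry2 (1.69) lie past the dotted 2-fold lines, and Dusp6 (-0.79) and Fgfr2 (-0.61) lie inside them.

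Probe-to-probe disagreement covers only part of the error. Probes of 1 gene were read on the same 2 arrays, so their disagreement holds no error between arrays, dissections or embryos. Over 472 genes with several probes above both floors, the ratios of probes of 1 gene spanned a median of 0.57 on the log2 scale, and for 1 gene in 10 the span exceeded 1.90. The 32 silent probes above both floors had an SD of 0.84 in log2 ratio. A span between probes is a distance between ratios, not the error of 1 ratio. The ratios of Pdgfra (-1.46) and Spry2 (1.69) were smaller in size than the upper span of 1.90. Those of Spred2, Spred3 and Dusp4 are bounds, so their differences cannot be placed against it. None of the 5 genes had a second probe above a floor.

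The rest of the pathway was described from 10 lists holding 132 genes outside the 10, of which 120 were on the array and 49 were measured. Of these 49, 8 were 2-fold or more higher in fibers and 17 were 2-fold or more higher in epithelium, beside 15.5% and 18.5% of all measured genes, and their median log2 ratio was -0.22. Scaled to housekeeping genes, the counts were 2 and 27. Of the 22 FGF genes, 20 were below both floors, Fgf1, Fgf2 and Fgf9 among them. Fgf13, an intracellular FGF homologue that does not act as a secreted ligand, read -7.91 in fibers and 82.6 in epithelium, at least 2.57-fold higher in epithelium. Fgf15, an FGF known from the developing retina, read 63.3 in fibers and 78.2 in epithelium (log2 ratio -0.31).

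Among 16 further receptors and co-receptors, 6 were measured, of which 2 reached 2-fold in favour of fibers and 2 in favour of epithelium. The shares of all measured genes were 15.5% and 18.5%. Flrt3, a transmembrane protein that binds FGF receptors, read 31.1 in fibers and 395 in epithelium, at least 12.3-fold higher in epithelium with 1 of its 2 probes, and the heparan sulfate proteoglycan Gpc1 read 48.3 in fibers and 271 in epithelium (5.61-fold). The related Flrt2 lay the other way, at 172 in fibers and 70.8 in epithelium (2.42-fold higher in fibers). Fgfrl1, an FGF receptor without a kinase domain, read 103 in fibers and 12.9 in epithelium, at least 2.31-fold higher in fibers. Scaled to housekeeping genes, Flrt2 was under 2-fold (log2 ratio 0.43), and the bound for Fgfrl1 (0.34 on the log2 scale) no longer reached 2-fold.

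Of 11 genes of heparan sulfate synthesis and editing on the array, 6 were measured. All 6 lay on the epithelium side with their brightest probes and quantile normalization, as did 44.5% of all measured genes. Of the 6, 3 were past 2-fold, beside 18.5% of all measured genes. The median log2 ratio of the 6 was -1.71. The median of 0.00 over all measured genes is the value assigned to genes with no direction. With the lowess fit, Sulf2 turned to the fibers side, with a log2 ratio of 0.16 in place of -0.22. Hs6st2, a 6-O-sulfotransferase, had a log2 bound of -0.99, and a bound of 0.41 towards fibers with the lowess fit. The lowess value came from another probe, which that fit made the brightest. With quantile normalization this probe was above the floor in fibers only, at 43.3 in fibers and 28.9 in epithelium, with no direction. Sulf1, which removes sulfate groups from heparan sulfate outside the cell, read 22.0 in fibers and 352 in epithelium, at least 11.0-fold higher in epithelium, but another Sulf1 probe gave a log2 ratio of -0.49. Hs2st1, the 2-O-sulfotransferase, read 5.08 in fibers and 221 in epithelium, at least 6.88-fold higher there with 1 of its 2 probes. Glce, which epimerises the sugar chain, read 33.2 in fibers and 178 in epithelium (5.36-fold). For 4 of the 6 the value is a bound, whose side is fixed by the array that was above its floor.

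Between receptor and ERK, the members of the pathway lay on both sides. Of 7 measured adaptors and Ras genes, 3 were 2-fold or more higher in fibers and 1 in epithelium. Over all measured genes the shares were 15.5% and 18.5%. Scaled to housekeeping genes, the counts were 1 and 2, and the shares 4.45% and 42.9%. Shc1, an adaptor that links receptors to Ras, read 832 in fibers and 101 in epithelium (8.26-fold), while its other 3 probes were below both floors. Crk, another adaptor, read 1073 in fibers and 419.8 in epithelium (2.56-fold), and Nras, a Ras GTPase, read 1635 in fibers and 668 in epithelium (2.45-fold). The other probes of both genes were below both floors. Scaled to housekeeping genes, Crk and Nras fell under 2-fold, with log2 ratios of 0.56 and 0.42. Gab2, a docking protein, read -2.87 in fibers and 96.0 in epithelium, at least 2.99-fold higher in epithelium with 1 of 4 probes. Of 6 measured Raf-MEK-ERK kinases and scaffolds, Araf was the one past 2-fold, at 92.0 in fibers and 296 in epithelium (3.22-fold) while its other probes gave no direction, and Braf, a Raf kinase, had a log2 bound of 0.59 towards fibers that was lost under housekeeping scaling. The ERK kinases Map2k1 and Map2k2 had log2 ratios of 0.41 and 0.54, which turned negative when scaled to housekeeping genes.

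Of 4 measured genes of the PI3K-Akt branch, 3 were 2-fold or more higher in epithelium and none in fibers. Over all measured genes the shares were 18.5% and 15.5%. Akt2 and Pik3r1 were above the floor in epithelium only, which fixed their side, and Mtor had no direction. Akt2, a kinase of this branch, read 1.09 in fibers and 267 in epithelium, at least 8.30-fold higher in epithelium, and a second probe gave at least 5.96-fold. Pik3r1, a regulatory subunit of PI3K, read 11.1 in fibers and 174 in epithelium with 1 probe, a bound of 5.43-fold, and 22.0 in fibers and 164 in epithelium with another, a bound of 5.11-fold. For Akt2 and Pik3r1 separate probes thus gave the same call, but the other Pik3r1 probes were below both floors. They read -4.91 and -5.92 in fibers, against -2.14 and -8.09 in epithelium. Pdpk1, the kinase PDK1 that activates Akt, read 45.4 in fibers and 130 in epithelium with 1 probe (2.86-fold higher in epithelium), but its other probe read 51.2 in fibers and -1.15 in epithelium, at least 1.15-fold higher in fibers.

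Among the other feedback inhibitors, none reached 2-fold in favour of fibers. Of 14 on the array 6 were measured, and 2 were 2-fold or more higher in epithelium. Of all measured genes, 15.5% were past 2-fold towards fibers and 18.5% towards epithelium. Cblb, a ubiquitin ligase, read 76.7 in fibers and 5.91 in epithelium with 1 of 3 probes, a bound of 1.72-fold higher in fibers that was lost under housekeeping scaling. Nf1, a Ras GTPase-activating protein to which Spred proteins bind, read 46.4 in fibers and 201 in epithelium (4.33-fold). Its other probe was below both floors. Rasa1, another such protein, read 35.2 in fibers, just above the floor of 32.1, and 115 in epithelium (3.27-fold). Rasa1 lost its call with no floor (log2 ratio -0.95) and with the floor at the 99th percentile (log2 bound -0.51). That bound does not show that the difference was under 2-fold. Spry4, Spred1 and Il17rd, the last also known as Sef, were below both floors. Of 6 other measured MAPK phosphatases, Dusp1, an immediate early gene, read 482 in fibers and 19.0 in epithelium, at least 10.8-fold higher in fibers, and Dusp7, which acts on ERK, was at least 2.17-fold higher in epithelium. Dusp8, which acts on stress kinases, was at least 3.48-fold higher in fibers with 1 probe and at least 2.86-fold higher in epithelium with the other.

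Genes that respond to ERK also lay on both sides. Of 5 measured, 1 was past 2-fold towards fibers and 3 towards epithelium, beside 15.5% and 18.5% of all measured genes. Scaled to housekeeping genes, the counts were 0 and 4, beside 4.45% and 42.9%. Ccnd1, cyclin D1, read 232 in fibers and 749 in epithelium (3.22-fold), and its second probe gave 3.11-fold, while its last probe was below both floors. Egr1, an immediate early factor, read 1.09 in fibers and 106 in epithelium, at least 3.29-fold higher in epithelium, opposite to Dusp1. Srf, which binds DNA with some ETS factors, was 2.26-fold higher in epithelium, and Elk4, one of these factors, at least 2.86-fold higher in fibers with 1 of its 6 probes. Elk4 lost its call with no floor, where its log2 ratio was 0.94. It also lost the call when scaled to housekeeping genes (log2 bound 0.65), with the floor at the 99th percentile (bound 0.21) and with its second brightest probe (bound 0.33). These bounds do not show that the difference was under 2-fold.

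**Figure D4:**
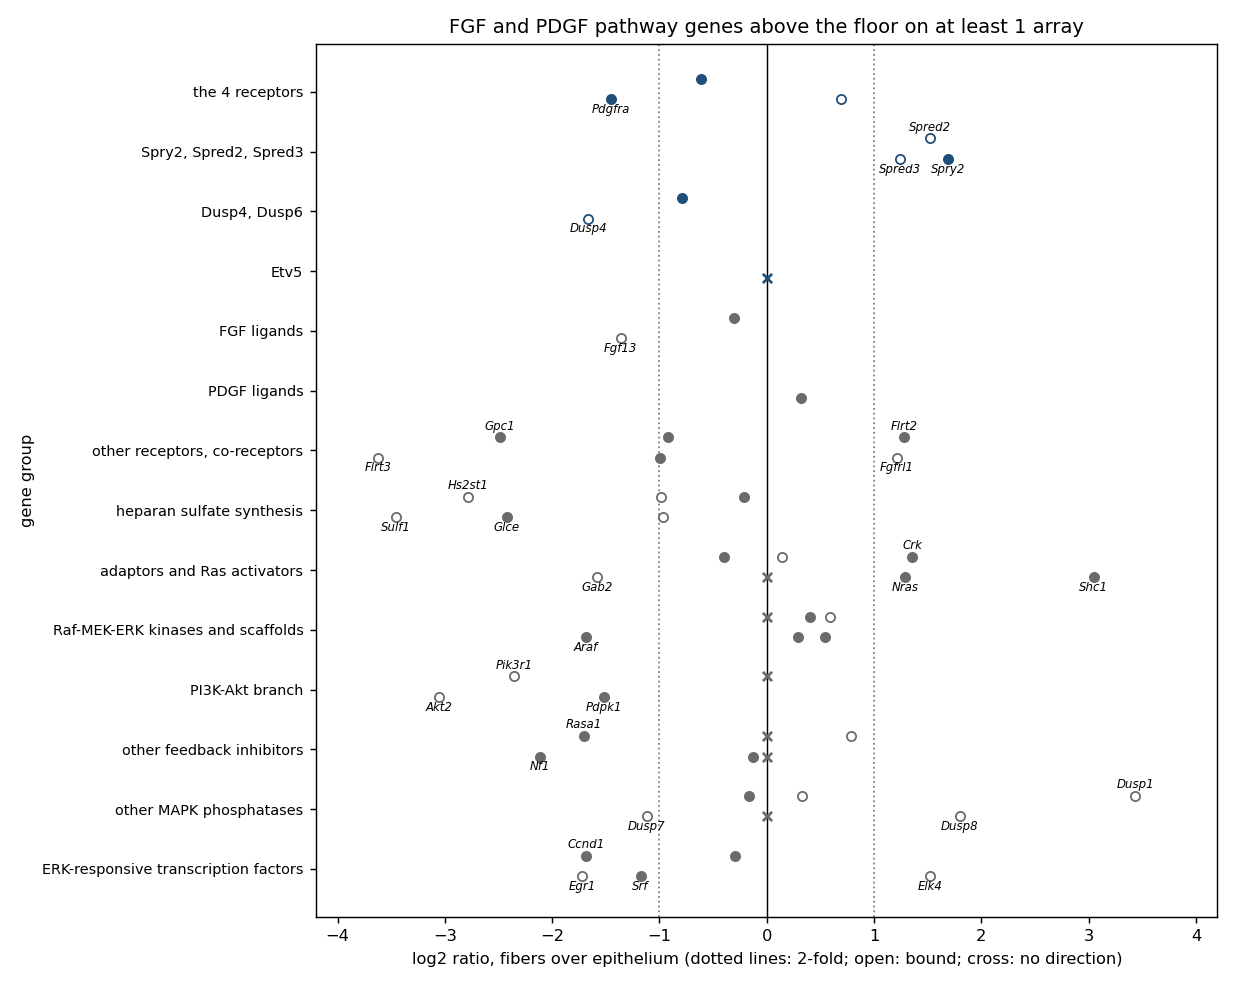
Log2 ratio of fibers over epithelium (horizontal axis) of the measured pathway genes by group (vertical axis), with the 9 measured genes of the 10 in blue, the others in grey, open circles for bounds and crosses for no direction, and names for genes at 2-fold or more. With the quantile-normalized brightest probes drawn here the heparan sulfate and PI3K-Akt groups have no gene right of 0. Their medians are -1.71 and -1.94. Sulf2 turned positive with the lowess fit and Pdpk1 with its other probe. Hs6st2 turned positive with the lowess fit through another probe, which that fit made its brightest. Spry2, Spred2 and Spred3 are all right of the 2-fold line.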

How the data were processed

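The values the authors deposited are linear intensities, 1 for each probe on each array. All 45281 rows held whole numbers and the lowest value was -16 on both arrays, so a background had been subtracted; the method of this and of any scaling is not stated in the labels or the file. Probes were named through the platform annotation: 34885 had 1 gene symbol, 18 several and 10378 none, and all 24 probes of the 10 genes matched the RefSeq gene table by gene ID.

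Quantile normalization was applied to the linear values (numpy 2.4.6, pandas 2.3.3), which moved no value of the 10 genes by more than 8.5 and hides any difference in total RNA. The floor, brightest-probe and bound rules stand in the report. The housekeeping list held 17 genes. A call means 2-fold or more. No test was possible with 1 array a group, and this number limits the precision. The calculation was tested on simulated data. In all, 12 alternatives were tried. The named pathway genes include at least the 2 with the highest absolute log2 ratio of each list.

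The 10 genes and all lists were chosen with earlier results of these data known.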

Additional observations from a re-analysis of the deposited data

How the results depend on the processing

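Pdgfra and Dusp4 kept their call under each alternative that gave a value, over 9 and 7 alternatives, but Dusp4 was below both floors, and so lost its call, with the floor at the 99th percentile, the mean of all probes and the second brightest probe, as Pdgfra was with the last. Scaled to housekeeping genes, the log2 values were 0.82 for Spry2, 0.65 (a bound) for Spred2, 0.37 (a bound) for Spred3, -1.43 for Fgfr2 and -1.63 for Dusp6. With the floor at the 99th percentile they were 0.41, 0.21 and 0.00 for Spry2, Spred2 and Spred3, because the floor that divides them is higher. The mean of all probes gave 0.023 for Spred2. Fgfr1 passed 2-fold with the lowess fit (1.15), the floor at the 90th percentile (1.37) and no floor (1.23). Fgfr2 was 0.065 with its second brightest probe, the opposite direction. Spry2 and Spred3 have 1 probe and gave no such value.

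Of the 10 genes, the number 2-fold or more higher in fibers and in epithelium was 3 and 2. It was 0 and 4 when scaled to housekeeping genes, 0 and 1 with the floor at the 99th percentile, 2 and 1 when probes were averaged, 0 and 0 with the second brightest probe, 4 and 4 at a 1.5-fold threshold and 1 and 1 at a 3-fold threshold. Over all genes the numbers were 1002 and 1196. They were 286 and 2756, 345 and 467, 660 and 751, 219 and 250, 1588 and 2006, and 463 and 593 under these 6 settings in the same order. For pathway genes outside the 10 they were 8 and 17, against 2 and 27 when scaled to housekeeping genes, 4 and 11 with the floor at the 99th percentile and 1 and 4 with the second brightest probe. Of 25 such genes past 2-fold, 11 stayed past it the same way under each alternative that gave a value and 2 reversed. Dusp8 reversed to -2.37 when scaled to housekeeping genes, which made its other probe the brightest, and to -1.52 with its second brightest probe, and Pdpk1 reversed to 0.20 with its second brightest probe. Where no reason is given, the cause was not tested. No paired analysis was possible because each group has 1 array. Values near the floors, Spry2 in epithelium and Etv5 in fibers among them, are limited by signal over background.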

Other observations

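Kl, the gene of klotho, a co-receptor for the hormone FGF23, read 3886 in fibers and 7341 in epithelium with 1 probe (1.89-fold higher in epithelium), while its other probe read 4.07 in fibers and -0.12 in epithelium, below both floors. Whether the bright probe measures Kl was not tested, since no probe sequence was used here. Klb, the related co-receptor, and Fgfr4 were below both floors. Ptpn11, the phosphatase Shp2 that acts downstream of FGF receptors, read 195 in fibers and 256 in epithelium with its brightest probe (log2 ratio -0.39), while its other 3 probes were above the floor in fibers only, with bounds from 1.55-fold to 1.89-fold higher in fibers. Of 8 retina markers on the array, 2 were measured. Sfrp2 read 140 in fibers and 1256 in epithelium (8.99-fold higher in epithelium). Fgf15 read 63.3 in fibers and 78.2 in epithelium (log2 ratio -0.31). Rax, Six6, Lhx2, Vax2, Hes5 and Neurod1 were below both floors. With quantile normalization, no endothelium, erythroid, macrophage, surface ectoderm or pigment cell marker reached 2-fold either way by ratio or bound. Whether other tissue contributed to the arrays was not tested.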
